A study of Mus musculus with 12 samples.

Results

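The Dlx and Msx homeobox genes are described here in mIMCD3 cells, an immortalized line of mouse inner medullary collecting duct epithelium. The 8 genes Dlx1, Dlx2, Dlx3, Dlx4, Dlx5, Dlx6, Msx1 and Msx2 were taken by symbol from the 47642 genes of the deposited table. The family was selected on the low level of Dlx5 in both knockouts, so the contrasts of Dlx5 with wild-type cells are given as a description, without a test. The study itself also names Dlx5 among its newly identified candidate genes from these libraries. RNA was sequenced from 12 libraries in 3 groups of 4. The Wt group is the unedited line. The Pkd1-/- group is 1 clone in which the Pkd1 gene was removed by CRISPR, and the Pkd2-/- group is 1 clone in which TALEN editing removed an internal stretch of Pkd2 exons. All groups share the simian virus 40 early region that keeps the line dividing, and none received a treatment. Of the 6 dishes grown per genotype, the 4 with the purest RNA were sequenced, taken 4 days after full confluency. The spread between replicates is that of dishes of 1 line each and does not include the variation between clones.

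Pkd1 and Pkd2 encode polycystin-1 and the channel TRPP2, whose loss causes autosomal dominant polycystic kidney disease. Dlx and Msx proteins are homeodomain transcription factors that bind short AT-rich DNA sequences with a TAATT core. Dlx genes are arranged in convergent pairs (Dlx1 with Dlx2, Dlx3 with Dlx4, Dlx5 with Dlx6) and are known for patterning the jaw, limb and forebrain, and Dlx5 also for bone formation. Dlx proteins generally activate and Msx proteins generally repress transcription, members of the families can bind each other, and several of the genes respond to bone morphogenetic proteins (BMPs). In the embryonic jaw, Dlx5 and Dlx6 lie downstream of endothelin-1.

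The unit throughout is the normalized count, the authors' read count of a gene divided by a size factor of its library and rounded. Totals were between 25966273 and 28027792 normalized counts per library, and every pair of libraries of 1 genotype correlated better than any pair of different genotypes. Pkd1 was at 682 to 883 normalized counts in Wt, 30 to 49 in Pkd1-/- and 1057 to 1492 in Pkd2-/- libraries, so the Pkd1-/- libraries were lowest, as their label says. Pkd2 was at 3438 to 4467 in Wt and 3855 to 4135 in Pkd2-/- libraries. That value counts all Pkd2 exons together and therefore does not check an internal deletion. Of 16 collecting duct epithelium markers, 15 had counts, with a sum of 90620 to 104478 per library over all genotypes, and Aqp2, the water channel of principal cells, was at 0 in all 12 libraries. The sum hides single markers. Gata3 held 176 to 248 in Wt, 42 to 56 in Pkd1-/- and 294 to 430 in Pkd2-/- libraries. Elf5 held 1 to 12 in Pkd1-/- and 0 or 1 in all other libraries. In the fit described below, the other 13 fitted markers were not called in either knockout against Wt. Of 8 neural and neural crest markers, the sum was 110 to 147 normalized counts in Wt, 83 to 97 in Pkd1-/- and 385 to 527 in Pkd2-/- libraries, most of it Tubb3, with Gad1 and Gad2 at 0. Elavl4 had the opposite order, with 0 to 5 in Wt, 16 to 21 in Pkd1-/- and 0 in all Pkd2-/- libraries. Of 8 endothelial and leukocyte markers, the sum was 47 to 77 over all libraries, most of it Cd68, with Cdh5, Kdr and Cd3e at 0. A change in the share of cells that use a gene and a change in RNA per cell cannot be told apart in such bulk RNA.

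The start regions of the genes show what these loci look like in sequence. RefSeq start windows of 300 bases on GRCm38.p6, with 250 bases before and 50 after the start, matched 4 of the 8 members (Dlx1, Dlx2, Msx1 and Msx2) and the long noncoding RNA Dlx6os1. Dlx6os1 is the noncoding transcript with counts at the Dlx5 and Dlx6 locus, so its windows at both starts of that table are shown with those of the members. One start lies between Dlx5 and Dlx6, and transcription from it runs across Dlx6 on the opposite strand. The other lies on the far side of Dlx6 and runs away from it. The windows below read 5′ to 3′ on the strand of the gene, and capitals mark the homeodomain core TAATTA, which is its own reverse complement, and TAATTG or its reverse complement CAATTA.
Dlx1, chr2:71529195-71529494, plus strand: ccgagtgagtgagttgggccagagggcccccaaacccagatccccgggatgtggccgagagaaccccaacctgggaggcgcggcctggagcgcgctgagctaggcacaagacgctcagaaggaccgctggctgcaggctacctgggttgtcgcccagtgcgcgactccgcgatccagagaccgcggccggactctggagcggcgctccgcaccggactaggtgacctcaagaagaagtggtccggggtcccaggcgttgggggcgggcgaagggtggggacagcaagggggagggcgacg
Dlx2, chr2:71546705-71547004, minus strand: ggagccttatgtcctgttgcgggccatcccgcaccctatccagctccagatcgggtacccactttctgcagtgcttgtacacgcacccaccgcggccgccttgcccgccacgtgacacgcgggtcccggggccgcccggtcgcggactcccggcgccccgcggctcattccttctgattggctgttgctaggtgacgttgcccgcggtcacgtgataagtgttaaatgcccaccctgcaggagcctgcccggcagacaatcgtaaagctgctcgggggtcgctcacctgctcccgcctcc
Msx1, chr5:37824536-37824835, minus strand: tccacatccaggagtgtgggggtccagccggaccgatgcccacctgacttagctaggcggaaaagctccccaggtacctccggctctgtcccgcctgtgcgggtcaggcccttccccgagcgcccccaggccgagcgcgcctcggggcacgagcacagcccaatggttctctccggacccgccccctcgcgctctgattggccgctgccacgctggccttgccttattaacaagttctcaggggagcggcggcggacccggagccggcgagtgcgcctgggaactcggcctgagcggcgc
Msx2, chr13:53472731-53473030, minus strand: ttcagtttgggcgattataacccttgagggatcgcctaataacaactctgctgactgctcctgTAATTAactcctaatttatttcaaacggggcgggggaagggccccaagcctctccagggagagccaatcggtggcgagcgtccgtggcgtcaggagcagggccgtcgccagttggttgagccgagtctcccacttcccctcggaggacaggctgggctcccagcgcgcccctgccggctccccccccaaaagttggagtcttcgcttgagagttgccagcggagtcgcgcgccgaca
Dlx6os1, start nearer to Dlx5, chr6:6869484-6869783, minus strand: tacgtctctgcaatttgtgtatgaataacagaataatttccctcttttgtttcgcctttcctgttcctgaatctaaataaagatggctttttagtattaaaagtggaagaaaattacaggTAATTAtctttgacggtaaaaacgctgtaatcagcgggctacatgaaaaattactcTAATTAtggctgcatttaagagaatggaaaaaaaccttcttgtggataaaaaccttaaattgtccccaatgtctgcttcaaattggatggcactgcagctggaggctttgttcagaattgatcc
Dlx6os1, other start, chr6:6861634-6861933, minus strand: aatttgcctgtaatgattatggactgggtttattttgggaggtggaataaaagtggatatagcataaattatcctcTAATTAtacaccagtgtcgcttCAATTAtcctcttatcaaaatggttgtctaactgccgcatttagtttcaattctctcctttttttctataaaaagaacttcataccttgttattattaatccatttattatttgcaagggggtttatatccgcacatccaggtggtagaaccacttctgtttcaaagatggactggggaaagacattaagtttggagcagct

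Base composition separated the windows. GC content was 69.3% for Dlx1, 66.3% for Dlx2, 70% for Msx1 and 61.0% for Msx2, against a median of 52.7% over all 32851 windows, and 35.7% and 35.3% for Dlx6os1. The 4 member windows held 22 to 29 CpG dinucleotides, against a median of 7, and the Dlx6os1 windows 5 and 3. TAATTA was absent from the Dlx1, Dlx2 and Msx1 windows and occurred 1 time in that of Msx2, from base 64. It occurred 2 times in the Dlx6os1 window nearer to Dlx5, from bases 121 and 177, and 1 time in the other, from base 77, which also held 1 CAATTA from base 99. Of all windows, 5.29% held TAATTA and 8.0% held TAATTG on either strand. These are matches of letters and say nothing of binding.

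Across the family, Dlx5 was the most abundant member in Wt cells, still at a low level, and the others were lower. Levels of different genes are compared as normalized counts per kb of annotated exon. In Wt libraries Dlx5 had 37.6 ± 8.2 per kb (SD, n = 4), which was higher than 41.7% of the 18552 genes that entered the fit described next. Dlx1 followed with 3.89 ± 0.895 per kb, Dlx2 with 1.14 ± 1.01, Msx1 with 0.969 ± 0.264 and Dlx4 with 0.765 ± 0.177. The ranges of Dlx2, Msx1 and Dlx4 overlapped, so their order is within the spread, while those of Dlx5 and Dlx1 were apart from each other and from the rest. Dlx6 had 0.211 and Dlx3 0.192 per kb, and Msx2 was at 0. In Pkd1-/- cells the order changed, with Dlx5 at 7.07 ± 1.3, Dlx1 at 5.7 ± 1.58 and Dlx4 at 4.13 ± 2.2 per kb, and these ranges overlapped. In Pkd2-/- cells Dlx1 had the highest mean at 2.04 ± 0.4 per kb, within the range of Dlx2 at 1.66 ± 1.19.

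Of the 8 members, 5 averaged 1 normalized count or more over the 12 libraries and entered the fit across 18552 genes, namely Dlx1, Dlx2, Dlx4, Dlx5 and Msx1. Dlx3, Dlx6 and Msx2 did not. Genes were called where adjusted p was under 0.05 and the log2 fold change was 1 or more in size, by limma with Benjamini-Hochberg adjustment over all 18552 genes. In Pkd1-/- against Wt cells, 1 of the 4 members left after Dlx5 was called, Dlx4, which was higher, beside 6.24% of all genes called in either direction, 2.96% higher and 3.28% lower. In Pkd2-/- against Wt cells limma called 0 of 4, beside 9.62% of all genes, 3.24% higher and 6.38% lower. In that comparison 1 member, Dlx1, had an unadjusted p under 0.05, and the same gene was the 1 member under 0.05 in the exact permutation test. Between the knockouts, 3 of 5 members were called, Dlx1, Dlx4 and Dlx5, all lower in Pkd2-/- than in Pkd1-/- cells. Beside them, 11.8% of all genes were called, 4.53% higher and 7.23% lower. This count includes Dlx5, on which the family was selected. Of the 4 members left after Dlx5, Dlx1 and Dlx4 were called. In the exact permutation test 2 of the 5, Dlx1 and Dlx5, were under 0.05. The comparisons with Wt share the same 4 Wt libraries and are not independent of each other.

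**Figure D1:**
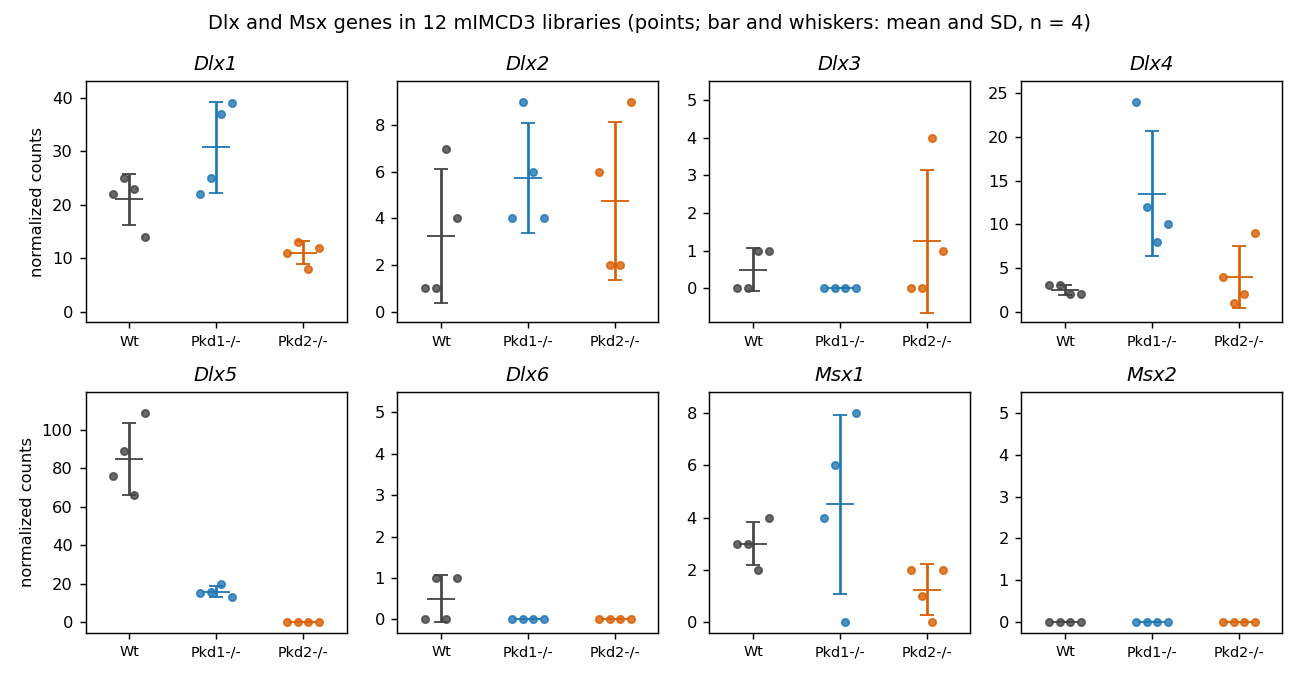
Normalized counts (vertical axis, linear, a different range in each panel) of the 8 Dlx and Msx genes in the 12 libraries, with 1 point per library, a horizontal bar for the mean of 4 libraries and whiskers for the SD. Dlx5 lies between 66 and 109 in Wt, between 13 and 20 in Pkd1-/- and at 0 in all Pkd2-/- libraries, while Msx2 is at 0 in all 12.

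Dlx5, which drives osteoblast differentiation and lower jaw identity, lies on the minus strand of chromosome 6 (ENSMUSG00000029755.10, chr6:6877805-6882085, GRCm38), and no other annotated gene overlaps it. The 4 Wt libraries held 76, 89, 66 and 109 normalized counts of Dlx5. The Pkd1-/- libraries held 15, 16, 20 and 13, and the Pkd2-/- libraries 0, 0, 0 and 0. The 3 genotypes did not overlap, with Wt highest and Pkd2-/- lowest. Mean levels were 85.0 ± 18.6 in Wt and 16 ± 2.94 in Pkd1-/- cells (SD, n = 4), so that the Pkd1-/- level was 18.8% of the Wt level. The log2 difference of Pkd1-/- from Wt was −2.33 (SE 0.282) on the log2(normalized count + 1) scale. A library showing 0 can still hold up to 3 counts of a gene at this depth, and against that limit Dlx5 was at least 28.3-fold lower in Pkd2-/- than in Wt cells. These contrasts were used to select the family and carry no test.

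The difference of Dlx5 between the knockouts was not used in the selection, although it rests on the same libraries. Dlx5 was at least 5.33-fold lower in Pkd2-/- than in Pkd1-/- cells, with a log2 difference of −4.07 (SE 0.282, adjusted p = 7.19e-10, limma). The fitted size depends on the pseudocount, since 1 group is at 0. By the two-sided exact permutation test p was 0.0286, the smallest value that 4 libraries against 4 can give. Dlx5 was lower in 4 of 4 Pkd2-/- libraries.

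Dlx6, the convergent partner of Dlx5 and its co-regulated neighbor in the embryo, lies 9.24 kb away on the plus strand (ENSMUSG00000029754.13, chr6:6863334-6868568). It had 1 normalized count in each of 2 Wt libraries and 0 in the other 10, so that it was not detectable at this depth in either knockout and no fold is given. Dlx6os1, known as Evf2 in the developing forebrain, where it acts on Dlx5 and Dlx6, held 1, 3, 3 and 6 normalized counts in Wt libraries. In Pkd1-/- libraries it held 0, 1, 0 and 0, and in Pkd2-/- libraries 0 throughout. Its few counts were thus nearly all in Wt, the genotype with the highest Dlx5. It averaged 1 normalized count or more over the 12 libraries only through the Wt group, and without Wt replicate 4 it fell below that limit, so its levels are a description and no test of it is given. The strand setting of the authors' counting is not given in the sources used here, so reads of Dlx6 and Dlx6os1 cannot be told apart where the genes overlap. Dlx6os2, the other noncoding transcript there, was at 0 in all libraries.

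The protein-coding genes around Dlx5 and Dlx6 did not show a difference of this size. The nearest fitted neighbors are Sem1, a proteasome component 285 kb before the pair, Slc25a13, a mitochondrial aspartate/glutamate carrier 646 kb before it, Sdhaf3, an assembly factor of succinate dehydrogenase 73.9 kb after it, and Asns, the asparagine synthetase 793 kb after it. In Pkd1-/- against Wt cells their log2 differences were −0.03, −0.13, −0.12 and 0.16. In Pkd2-/- against Wt cells they were −0.66, −0.47, −0.28 and 1.43, and Asns alone of the 4 was called (adjusted p = 3.2e-12). Genes of chromosome 6 averaging 10 normalized counts or more had median log2 differences of −0.053 and −0.054. Over the 20 neighbors of all member loci, limma called 0 in Pkd1-/- and 1, Asns, in Pkd2-/- cells, with log2 differences between −0.49 and 0.62 and between −0.93 and 1.43. In Pkd1-/- against Wt cells, 12 of the 20 had an unadjusted p under 0.05 in the fit and 9 in the exact permutation test. The share of all genes under these limits is not given here, so the counts do not set these loci apart.

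**Figure D2:**
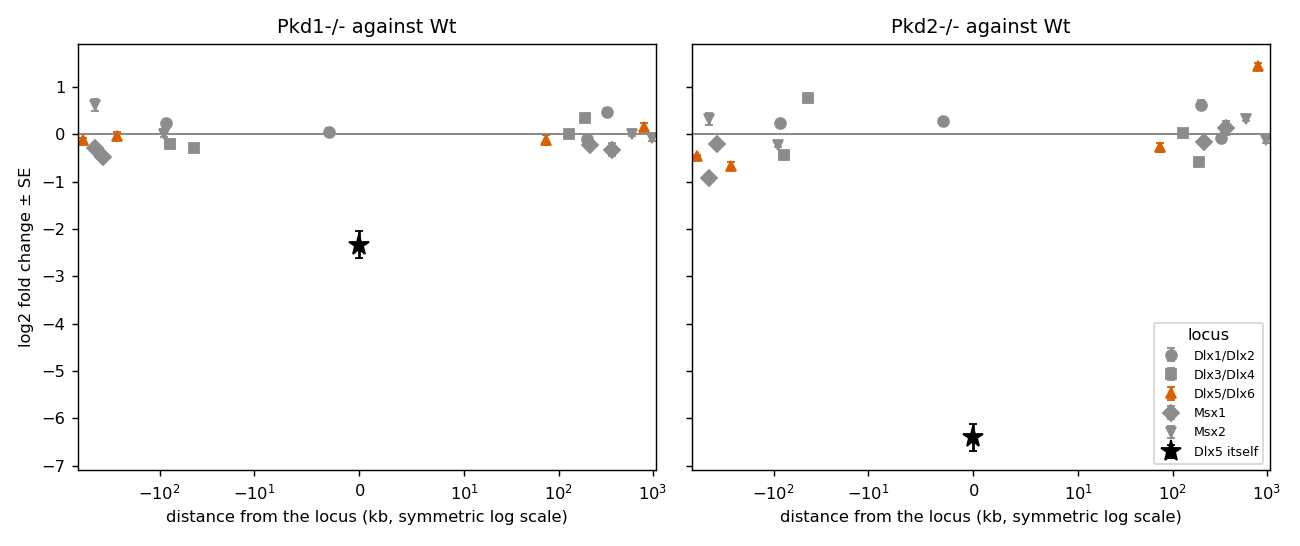
Log2 fold change with its SE (vertical axis) of the 2 nearest fitted protein-coding genes on each side of each Dlx and Msx locus, against the distance from the locus in kb (horizontal axis, symmetric log scale), in Pkd1-/- (left) and Pkd2-/- (right) against Wt, with the neighbors of Dlx5 and Dlx6 in orange and Dlx5 itself as a star. The 20 neighbors lie between −0.49 and 0.62 on the left and between −0.93 and 1.43 on the right, above Dlx5 at −2.33 and −6.4.

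Dlx1, best known from forebrain interneurons, was the other member averaging over 10 normalized counts. It lies on chromosome 2 (ENSMUSG00000041911.3, chr2:71528113-71533981, plus strand) and overlaps the antisense transcript Dlx1as. Wt libraries held 22, 25, 23 and 14 normalized counts. Pkd1-/- libraries held 22, 25, 37 and 39, and Pkd2-/- libraries 11, 13, 8 and 12. All 4 Pkd2-/- libraries were below all 8 others, whereas Pkd1-/- and Wt libraries overlapped. Between the knockouts Dlx1 was lower in Pkd2-/- cells by −1.38 on the log2 scale (SE 0.274, adjusted p = 0.000351, limma) and by p = 0.0286 in the exact permutation test, with means of 11 ± 2.16 against 30.8 ± 8.5 (SD, n = 4). The call held in all 20 alternatives.

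Against Wt, with 21.0 ± 4.83 normalized counts, the log2 difference of Dlx1 in Pkd2-/- cells was −0.86 (SE 0.274, adjusted p = 0.0158), which is under the fold threshold. By adjusted p alone, 42.3% of all genes passed in that comparison. Without Wt replicate 4, the lowest Wt library, the difference was −1.04 (adjusted p = 0.00624) and Dlx1 was called. Adjusted p ranged from 0.00624 to 0.0514 over the alternatives. In Pkd1-/- against Wt cells the difference was 0.52 (adjusted p = 0.184). Genes of chromosome 2 as a whole were higher in Pkd2-/- cells, by a median of 0.33 against Wt and 0.28 against Pkd1-/-, opposite in sign to the Dlx1 differences. Dlx1as held 5, 3, 5 and 7 normalized counts in Wt, 0, 4, 3 and 12 in Pkd1-/- and 10, 12, 9 and 4 in Pkd2-/- libraries, and was not called in any comparison.

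Dlx2, the partner of Dlx1, is 9.43 kb from it (ENSMUSG00000023391.8, chr2:71543408-71546754, minus strand) and overlaps no annotated gene. It held 1, 1, 7 and 4 normalized counts in Wt, 4, 9, 6 and 4 in Pkd1-/- and 6, 2, 2 and 9 in Pkd2-/- libraries. The 3 genotypes overlapped throughout. Its log2 differences of 0.86 (SE 0.529), 0.49 and −0.37 did not pass the test, with adjusted p = 0.261, 0.498 and 0.613 for Pkd1-/- against Wt, Pkd2-/- against Wt and Pkd2-/- against Pkd1-/-. At its few counts the SE was 0.529, against 0.274 for Dlx1.

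Dlx4, which is known from placenta, was higher in the Pkd1-/- libraries. It lies on chromosome 11 (ENSMUSG00000020871.8, chr11:95140447-95146263, minus strand). Wt libraries held 3, 3, 2 and 2 normalized counts, Pkd1-/- libraries 24, 12, 8 and 10, and Pkd2-/- libraries 4, 1, 2 and 9. Every Pkd1-/- library was above every Wt library, and 1 Pkd2-/- library reached the range of the Pkd1-/- group. Against Wt, Dlx4 rose in Pkd1-/- cells by 1.95 on the log2 scale (SE 0.474, adjusted p = 0.00411, limma) and by p = 0.0286 in the exact permutation test, with means of 13.5 ± 7.19 against 2.5 ± 0.577. Between the knockouts it was lower in Pkd2-/- cells by −1.69 (adjusted p = 0.00646), where the exact permutation test gave p = 0.0571. Pkd2-/- cells differed from Wt by 0.26 (adjusted p = 0.7), and by −0.16 without Pkd2-/- replicate 4.

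The overlapping antisense transcript Dlx4os held 4 and 1 normalized counts in 2 Pkd1-/- libraries and 0 in the other 10, and without a known strand setting its reads cannot be told apart from those of Dlx4. Summed over 8 mesenchyme markers, libraries had 32 to 58 normalized counts in Wt, 89 to 103 in Pkd1-/- and 15 to 141 in Pkd2-/-. Of these markers, Col3a1 was higher in Pkd1-/- cells, at 62 to 69 against 3 to 7 in Wt. Dcn, at 17 to 40 in Wt and 18 to 23 in Pkd1-/- libraries, was not called there, nor were Col1a1, Col1a2 and Pdgfrb. Thy1 was at 0 in all libraries, and Pdgfra and Lum had at most 2. The highest Pkd2-/- sum was that of replicate 3, where Col1a1 held 31, Col1a2 44 and Col3a1 42. The part of these markers in the Dlx4 result was not tested. Dlx3, the partner of Dlx4 (ENSMUSG00000001510.8, chr11:95120119-95125296), which is known from skin and tooth, held 0 or 1 in Wt, 0 in all Pkd1-/- and 0, 0, 4 and 1 in Pkd2-/- libraries, and is given without a test.

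The Msx genes, which act in limb, tooth and skull, were at few counts. Msx1 (ENSMUSG00000048450.10, chr5:37820485-37824583, minus strand) held 3, 3, 2 and 4 normalized counts in Wt, 4, 6, 0 and 8 in Pkd1-/- and 2, 1, 0 and 2 in Pkd2-/- libraries. The Pkd1-/- libraries covered the range of both other genotypes. Its log2 differences were 0.098 (SE 0.605, adjusted p = 0.935) in Pkd1-/- and −0.93 (adjusted p = 0.239) in Pkd2-/- against Wt, and −1.03 (adjusted p = 0.18) between the knockouts. Without Pkd1-/- replicate 3, the library at 0, the last of these was −1.72 (adjusted p = 0.0083) and passed both thresholds, and adjusted p ranged from 0.0083 to 0.434 over its alternatives. Msx2 (ENSMUSG00000021469.9, chr13:53466884-53473074) was at 0 in all 12 libraries, where up to 3 counts each would go unseen.

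**Figure D3:**
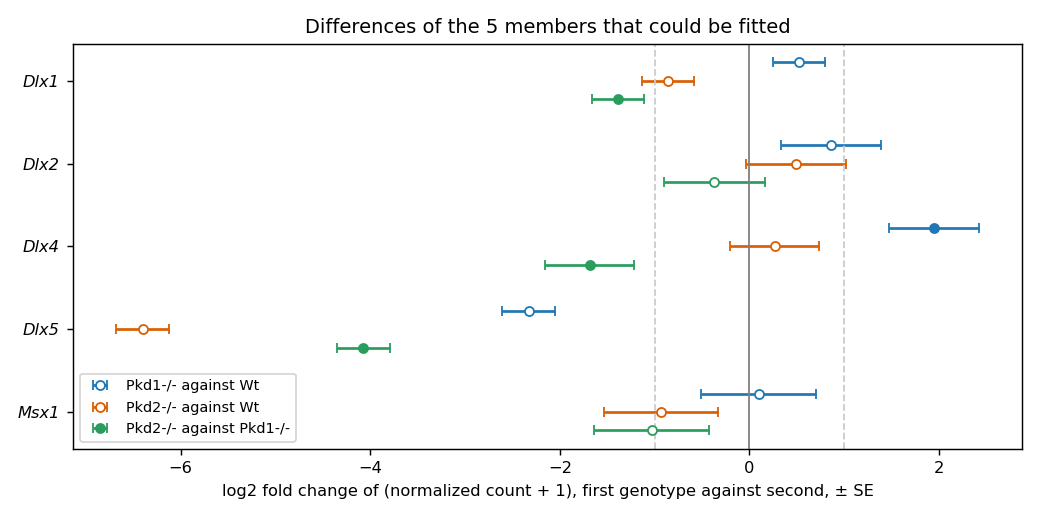
Log2 fold change of (normalized count + 1) with its SE (horizontal axis) of the 5 fitted members in the 3 comparisons of genotypes. Filled points passed both thresholds, of which the fold is marked by dashed lines, and open points did not or, for Dlx5 against Wt, were not tested. The filled points are Dlx4 at 1.95 in Pkd1-/- against Wt, and Dlx1 at −1.38, Dlx4 at −1.69 and Dlx5 at −4.07 between the knockouts.

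Likeness to Dlx5 over the 12 libraries was widespread and follows the order of the genotypes, Wt highest and Pkd2-/- lowest. Of 13702 genes averaging 10 normalized counts or more, 696 had a Pearson r of at least 0.9 with Dlx5 on the log2(normalized count + 1) scale. The 5 most alike were Edil3, an extracellular integrin ligand, Ptk2b, a calcium-dependent tyrosine kinase, Nrep, Cables1, which binds cyclin-dependent kinases, and Srd5a1, a steroid 5-alpha-reductase, with r between 0.992 and 0.997. Edil3 went from 243 ± 9.11 in Wt to 60.8 ± 11.8 in Pkd1-/- and 5.75 ± 0.5 in Pkd2-/- cells, and Srd5a1 from 1938 ± 138 to 1157 ± 83.7 and 444 ± 15.1 (SD, n = 4). Of these 6 genes Dlx5 alone was at 0 in the Pkd2-/- libraries. It was also the least abundant of them in Wt, with a mean of 85.0 against 243 for Edil3, the next lowest. The counting limit used above for a 0 applies to single libraries, whereas Dlx5 was at 0 in all Pkd2-/- libraries. Whether Dlx5 fell more than Edil3 was not tested. For Dlx1, 50 genes had an r of at least 0.9, led by Cep41 (0.948), Kcnab2 (0.944), Ttc13 (0.943), Rfx2 (0.939) and Smyd4 (0.935), all highest in Pkd1-/- and lowest in Pkd2-/- cells. The points share libraries and genotypes, so these are descriptions with no test.

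**Figure D4:**
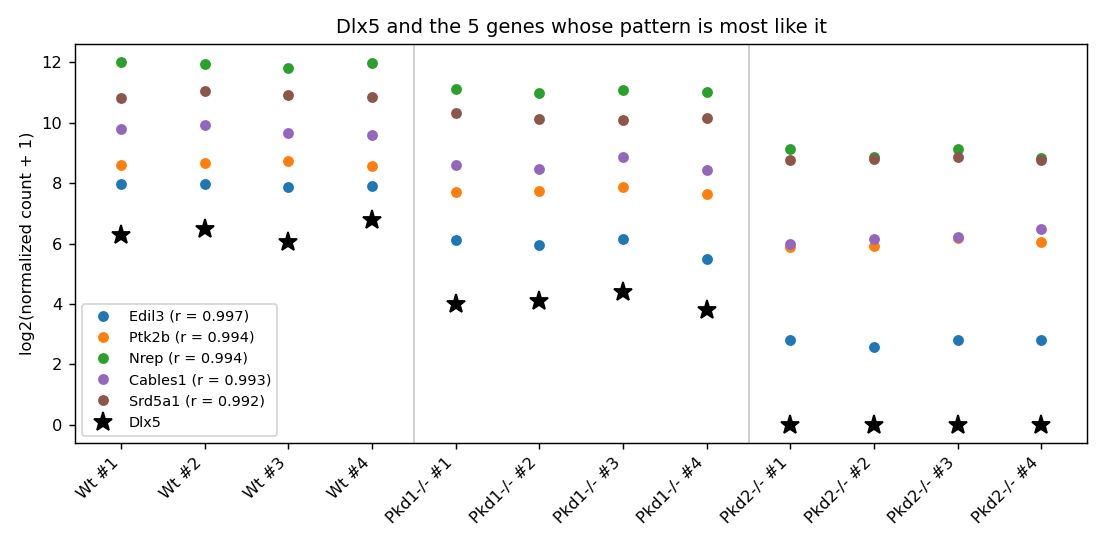
Level on the log2(normalized count + 1) scale (vertical axis) of Dlx5 (stars) and of the 5 genes with the highest Pearson r with it (points) in the 12 libraries (horizontal axis), separated by genotype. All 6 genes step down from Wt to Pkd1-/- to Pkd2-/-, and Dlx5 reaches 0 in the Pkd2-/- libraries.

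Of 36 homeobox relatives in the NK-like group, 22 were at 0 in all libraries, and 7 could be fitted. Of the 8 Dlx and Msx genes 1 was at 0, but the family was selected for a gene with counts. Dlx3 and Dlx6 were above 0 in only 4 and 2 libraries. Over the whole series, 25060 of 47642 genes had counts in any library. Emx2, a regulator of the kidney's urogenital origin, was the most abundant at 1306 ± 114 normalized counts in Wt, 1640 ± 61.6 in Pkd1-/- and 1114 ± 47.8 in Pkd2-/- cells, and was not called. Vax2, known from the ventral eye, held 0, 0, 1 and 2 normalized counts in Wt, 6, 6, 2 and 11 in Pkd1-/- and 1, 0, 0 and 0 in Pkd2-/- libraries. It entered the fit only through its Pkd1-/- libraries, so no test of it is given. Of the other 6, limma called 0 in Pkd1-/- against Wt cells, where 3 had an unadjusted p under 0.05 and 2 in the exact permutation test. These counts too have no share of all genes beside them. In Pkd2-/- against Wt cells Nkx2-3, known from gut and spleen, rose by 2.98 (adjusted p = 9e-10), from 23 to 34 in Wt libraries to 232 to 264. Hlx, with a log2 difference of −1.63 (adjusted p = 0.016), and Hmx2, with −1.79 (adjusted p = 0.00664), fell. Hlx lost its call in 5 of 20 alternatives, with adjusted p between 0.00332 and 0.0595, among them those without Wt replicate 1 (−1.46) and without Pkd2-/- replicate 2 (−0.92), while Hmx2 lost its call with a pseudocount of 5. Median log2 differences of the 6 were 0.32 and −0.56, beside 0.011 and −0.0064 over all fitted genes.

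Ligands and antagonists made up most of the BMP genes that were called. Of 8 ligands, 3 could be fitted, and 2 of them, Bmp3 and Bmp6, fell in both knockouts. Bmp3 held 83 to 96 normalized counts in Wt, 11 to 37 in Pkd1-/- and 1 to 4 in Pkd2-/- libraries, with log2 differences of −1.91 (adjusted p = 0.00052) and −5.03 (adjusted p = 1.77e-09). Bmp6, at 9 to 20 in Wt, was at 0 in all Pkd1-/- libraries, at least 4.42-fold lower, and at 2 to 10 in Pkd2-/- libraries (−1.22, adjusted p = 0.0305, adjusted p between 0.00976 and 0.125 over the alternatives). That call was lost in 7 of 19 alternatives, among them those without Wt replicate 3 (−1.01) or 4 (−1.17) and without Pkd2-/- replicate 2, 3 (both −1.23) or 4 (−0.89). Bmp4, the most abundant ligand, had 214 ± 17.6, 176 ± 22.9 and 218 ± 11.4 normalized counts in Wt, Pkd1-/- and Pkd2-/- cells and was not called. Median differences of the 3 ligands were −1.91 and −1.22.

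Of 10 BMP antagonists, 5 could be fitted. Fstl1, a follistatin-like secreted protein that the study itself picked out from these libraries, fell in both knockouts, from 179 to 202 normalized counts in Wt to 7 to 11 in Pkd1-/- (−4.34, adjusted p = 1.27e-09) and 3 to 10 in Pkd2-/- libraries (−4.7, adjusted p = 1.75e-10). Sostdc1, a BMP and Wnt inhibitor, held 131 to 153 in Wt, 94 to 122 in Pkd1-/- and 0 or 1 in Pkd2-/- libraries (−6.69, adjusted p = 1.82e-13). Fst, which sequesters activin, fell in Pkd2-/- cells from 238 ± 28.5 to 78.2 ± 18.9 (−1.61, adjusted p = 2.37e-07). Twsg1, by far the most abundant antagonist, went the other way in Pkd2-/- cells, from 11748 ± 507 to 15452 ± 765 (0.395, adjusted p = 9.53e-07, under the fold threshold). Bambi, at 0 to 7 normalized counts, was not called. Median differences of the 5 were −0.42 and −1.61. Summed over all 10 antagonists, libraries held 11684 to 12843 in Wt, 10652 to 10982 in Pkd1-/- and 14718 to 16542 in Pkd2-/-.

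Of 12 BMP receptors and Smads, 11 could be fitted and 1, Smad9, fell in each knockout, from 7 to 24 normalized counts in Wt to 4 to 7 (−1.48, adjusted p = 0.0234) and 2 to 13 (−1.73, adjusted p = 0.00539). The Pkd1-/- call of Smad9 was lost in 6 of 19 alternatives, with adjusted p between 0.00546 and 0.0744, among them those without Wt replicate 1 (−1.31), 2 (−1.4) or 4 (−1.33) and without Pkd1-/- replicate 2 (−1.36) or 3 (−1.45). The other 10 were not called, and the medians were −0.09 and 0.037. Among the 5 early BMP targets, Id4 fell in Pkd2-/- cells from 127 ± 6.55 to 16.2 ± 3.3 (−2.91, adjusted p = 3.27e-11), and 0 were called in Pkd1-/- against Wt by limma, where Id1, Id2 and Atoh8 were under an adjusted p of 0.05 with differences of 0.56, −0.57 and 0.45. Of the 5, 4 had an unadjusted p under 0.05 there and 3 passed in the exact permutation test, without a share of all genes to set beside these counts. Id1 was called between the knockouts (−1.23, adjusted p = 2.86e-12), at 994 to 1158 in Pkd2-/- and 2357 to 2647 in Pkd1-/- libraries. The order of Id1 levels, Pkd1-/- over Wt over Pkd2-/-, was that of the Dlx1 means. The means of Id2, Id3, Id4 and Atoh8 had other orders, and a link to Dlx1 was not tested.

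Of 11 genes of the endothelin axis, 7 could be fitted, and both receptor genes, Ednra and Ednrb, were at 0 in all libraries. Edn1, the ligand upstream of Dlx5 and Dlx6 in the jaw, fell in Pkd1-/- cells from 390 ± 71 to 137 ± 14.6 (−1.49, adjusted p = 3.15e-06) and was at 282 ± 99.1 in Pkd2-/- cells (−0.51, not called). Ece1, which cleaves the endothelin precursor, fell in Pkd2-/- cells from 1579 ± 65.9 to 505 ± 53.8 (−1.65, adjusted p = 2.08e-12). Mef2c, a transcription factor of the same axis, rose in Pkd1-/- libraries from 0 to 5 normalized counts to 340 to 392 (7.14, adjusted p = 5.33e-10). In Pkd2-/- libraries it was at 0 or 1, and that call (−1.15, adjusted p = 0.047) was lost in 14 of 20 alternatives, with adjusted p between 0.00244 and 0.179. Leaving out Wt replicate 1 (−0.75) or 3 (−0.94), Pkd2-/- replicate 1, 3 or 4 (−1.06 each) or any Pkd1-/- replicate (−1.15) was enough to lose it. Medians of the 7 were 0.14 and −0.49.

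Of 14 known binding partners and co-repressors, 10 could be fitted. Maged1, a partner of Dlx5 and Msx2, was abundant at 10499 to 11399 normalized counts in Wt and was not called. Pax3, which pairs with Msx1, rose in Pkd1-/- libraries from 63 to 78 to 328 to 386 (2.34, adjusted p = 3.29e-07) and was at 1, 0, 0 and 0 in Pkd2-/- libraries (−5.9, adjusted p = 3.61e-13). Pax9, a partner of Msx1 in tooth, fell in both, from 464 to 541 to 59 to 90 (−2.7, adjusted p = 6.14e-11) and 42 to 64 (−3.24, adjusted p = 1.75e-12). Tle4, a Groucho co-repressor, rose in Pkd2-/- cells from 458 ± 21.5 to 1102 ± 84.8 (1.26, adjusted p = 1.98e-10). In Pkd1-/- cells Tle4 was lower than in Wt, at 253 ± 23.3 (−0.86, adjusted p = 9.34e-08, limma, under the fold threshold). Medians were 0.013 and −0.15.

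Among 16 genes known downstream of Dlx or Msx in bone, jaw or brain, 6 could be fitted, and Gad1, Gad2, Slc32a1, Ibsp and Gsc were at 0 in all libraries. Spp1, osteopontin, fell in both knockouts, from 3866 ± 247 to 1018 ± 80.1 (−1.92, adjusted p = 5.03e-14) and 1027 ± 38.3 (−1.91, adjusted p = 1.52e-14). The study itself picked Spp1 from these libraries, so its fall is not independent of that choice. Nrp2, a semaphorin receptor repressed by Dlx1 and Dlx2 in forebrain, rose in Pkd1-/- cells from 238 ± 38 to 832 ± 70.2 (1.81, adjusted p = 1.75e-10). Runx2, the bone regulator, held 6 to 11 in Wt, 0 to 13 in Pkd1-/- and 3 to 6 in Pkd2-/- libraries and was not called. Medians of the 6 were 0.36 and 0.0053, but these include Sp7, at 0 to 8 normalized counts in Pkd1-/- libraries. Sp7 entered the fit only through the Pkd1-/- group and is given without a test. With Sp7 left out, the middle gene was Ccnd1 at 0.27 in Pkd1-/- and Nrp2 at 0.51 in Pkd2-/- against Wt cells.

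**Figure D5:**
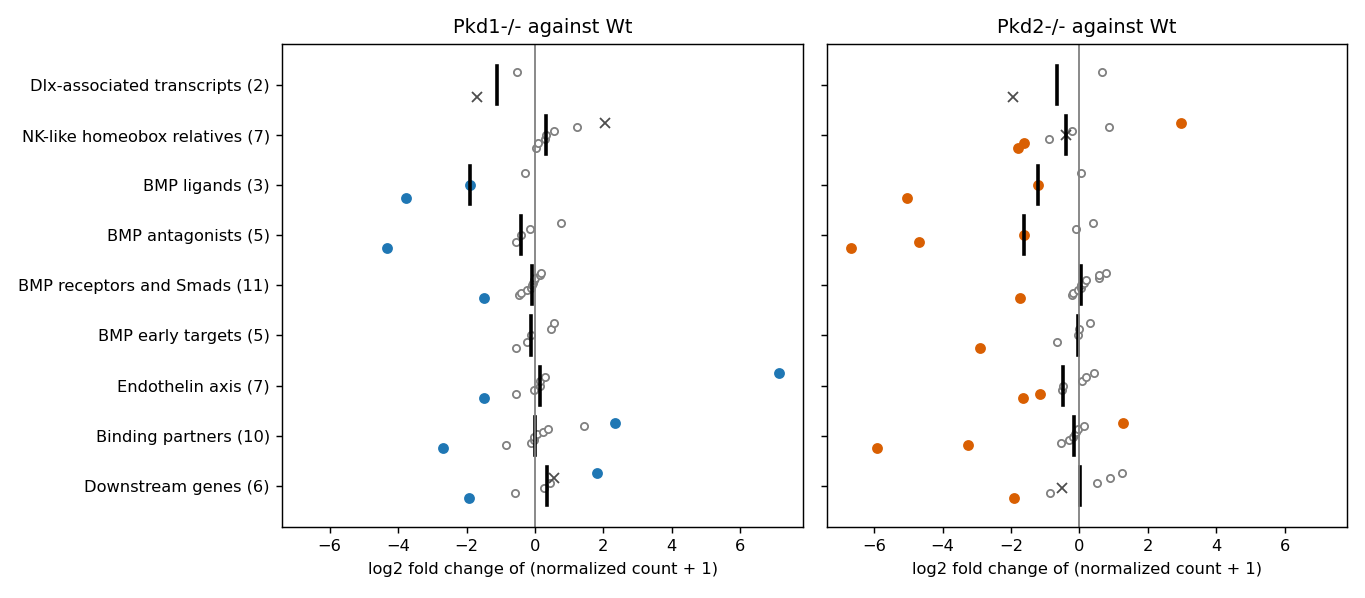
Log2 fold change of (normalized count + 1) (horizontal axis) of the fitted genes of 9 lists (rows, with the number of fitted genes in parentheses) in Pkd1-/- (left) and Pkd2-/- (right) against Wt. Filled points were called, open points were not, crosses mark the 3 genes that entered the fit only through the group where they are high (Dlx6os1, Vax2 and Sp7), which are given without a test, and black bars mark the median of the fitted genes of a list. BMP ligands have medians of −1.91 and −1.22, and the BMP receptors and Smads −0.09 and 0.037.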

How the data were processed

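RNA of 12 dishes of mIMCD3 cells was sequenced, 4 each of Wt, Pkd1-/- and Pkd2-/- cells, and groups were taken from the sample labels. The submitters' processing notes name Trim Galore, FastQC, HISAT2, HTSeq, DESeq2 and StringTie and the builds mm10 and mm9, and the strand setting of the counting is not given in the sources used here. The deposited score values are the authors' read counts per Ensembl gene, divided by DESeq2 size factors and rounded, which is a normalized unit and not read counts. No column of sample values was left unused (0). Differences in sequence depth were removed by that division, and rounding limits the precision of low values. Counting error is the only error that the limit of 3 counts covers.

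Symbols and positions were matched by gene ID to GENCODE M21 (GRCm38), which named 47223 of 47642 IDs. log2(normalized count + 1) was fitted with limma 3.58.1 in R 4.3.3 (lmFit, eBayes with a variance trend) over all 12 libraries without a replicate term, for the 18552 genes averaging 1 or more, and p-values were two-sided and adjusted within each comparison. DESeq2 and edgeR were not run here, since they need read counts. The limma step was tested on simulated data. Single members were also tested by the two-sided exact permutation test in scipy. Everything else was computed in Python, and the Pearson r of likeness used genes averaging 10 or more.

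The members and gene lists were chosen with earlier results of these data known. Named are all members, Pkd1 and Pkd2, up to 5 called genes per list by the largest mean change over both knockouts, genes behind counts of 5 or fewer, the nearest 2 fitted coding genes on each side of a locus, and the 5 genes most like Dlx1 and Dlx5. Other genes named for a level, such as Emx2, Bmp4, Maged1 and Runx2, were chosen after their values were seen. Results were recomputed with pseudocounts of 0.5 and 5, without the filter, with a mean of 10 or more, upper quartile scaling, a replicate block, only the 2 groups compared, no variance trend or no fold threshold, and without each library in turn.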

Additional observations from a re-analysis of the deposited data

Results flagged for a closer look

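The levels of 3 members differed between the knockouts, which are compared with the same Wt libraries. Dlx1 differed by −1.38, Dlx4 by −1.69 and Dlx5 by −4.07 on the log2 scale in Pkd2-/- against Pkd1-/- cells, each under an adjusted p of 0.05 by limma. By the exact permutation test Dlx4 had p = 0.0571, and Dlx5 is the gene on which the family was selected.

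In 4 of the 81 groups of 4 libraries whose values were not all equal, 1 library stood apart from the other 3, each time with 1 normalized count beside 3 values of 0, namely Dlx6os1 in Pkd1-/- and Vax2, Mef2c and Pax3 in Pkd2-/- cells. With such counts the gap is the whole range whatever the data, so the rate of about 1 in 20 groups that chance gives for continuous values does not hold here.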

How the results depend on the processing

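Of the counts of called members, that of Pkd1-/- against Wt was 0 instead of 1 with a mean of 10 or more, since Dlx4 then left the fit. That of Pkd2-/- against Wt was 1 instead of 0 with no fold threshold, and 0 to 1 when single libraries were left out, where the 1 is Dlx1 without Wt replicate 4. The count between the knockouts, which includes Dlx5, was 3. It was 2 with a mean of 10 or more, where Dlx4 left the fit. When single libraries were left out it was 3 to 4, where Msx1 was called as well without Pkd1-/- replicate 3. The log2 differences of members were unchanged in 282 of 291 values under alternatives. Unchanged means the same sign and the same call. For Dlx5 against Wt, which carries no call, it means the same sign and a shift under 1 within-group SD. Changing the filter, the variance trend or the libraries of the group not compared cannot alter a log2 difference. For Dlx5 against Wt, part of this count was therefore fixed in advance. Msx1 in Pkd1-/- against Wt turned to −0.037 with a pseudocount of 0.5 and lay between −0.27 and 0.79 when single libraries were left out. Dlx4 in Pkd2-/- against Wt lay between −0.16 and 0.62, Hmx2 in Pkd1-/- against Wt between −0.019 and 0.51, Pkd2 in Pkd2-/- against Wt between −0.055 and 0.071, and, between the knockouts, Smad9 between −0.71 and 0.031 and Spp1 between −0.030 and 0.061. None of these was called. Dlx5 in Pkd2-/- against Wt moved to −7.39 and −4.15 with pseudocounts of 0.5 and 5, since it is at 0. Where no value shows it, the cause was not tested.

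Replicate numbers are shared by the groups, but the correlation of same-numbered libraries was between −0.073 and 0.2 and over 0.1 in 2 of 12 pairs, and a library correlated best with its own number in 9 of 24 cases, so the numbers were not taken as a pairing. With the replicate block, 1, 0 and 3 members were called, the same counts as without it, and 1170, 1790 and 2183 genes instead of 1158, 1785 and 2182. Among the named genes the block changed the calls of Hlx in Pkd1-/- (1.23, gained) and Mef2c in Pkd2-/- cells (−1.15, lost).

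Members with few counts limit what these libraries show, as at Dlx2 and Msx1, and with 1 clone per genotype the effects of clone and genotype cannot be told apart.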
